A study of Mus musculus with 7 samples.

Results

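Crypt cells sorted for high Dll1-GFP and medium CD24 were compared with cells sorted for high Lgr5-GFP, gene by gene. The comparison takes every array labelled Dll1 GFP high/CD24medium, which is 2 arrays, and the 1 array labelled Lgr5 GFP high, 3 of the 7 arrays of the series. The Dll1 cells came from Dll1-EGFP-ires-CreERT2 mice, in which the Dll1 promoter drives GFP, and the Lgr5 cells from Lgr5-EGFP-ires-CreERT2 mice, in which the Lgr5 promoter does. In both lines GFP marks cells by promoter activity, so a cell can carry GFP after the promoter has gone quiet. The other 4 arrays hold Dll1 GFP high cells with high or low CD24, 2 of each. Every array set 100 ng of sorted-cell RNA in Cy3 against RNA of whole small intestine in Cy5, in 1 dye orientation. Age, number of animals and pooling are not given in the sources used here. The series calls the 2 Dll1 samples of each kind biological replicates, nothing ties them to named animals, and the p-values measure only the spread between these samples.

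The intestinal crypt is renewed by Lgr5 stem cells at its base, which divide under Wnt signals. Notch signalling between neighbouring cells decides whether a daughter becomes absorptive or secretory: cells that escape Notch switch on Atoh1, display Notch ligands such as Dll1, and go on to goblet, Paneth, enteroendocrine or tuft fates. The enteroendocrine fate runs through Neurog3 and a chain of further transcription factors to cells that store peptide hormones and serotonin in granules. CD24 is a small surface protein that is abundant on Paneth and some endocrine cells.

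All values are log2 ratios of sorted cells over whole small intestine after background correction, so 0 means the level of the whole tissue, and a difference of 1 between arrays is a doubling. The sorting genes behaved unequally. Lgr5 RNA stood at 2.51 on the Lgr5 array and at -0.66 and -0.54 on the CD24 medium arrays, and Dll1 RNA at 0.88 against 2.81 and 2.53. On the CD24 high arrays Dll1 stood at 0.61 and -0.04, no higher than in Lgr5 cells. Cd24a, the gene of the sorted surface protein, stood at -0.11 in Lgr5 cells, 0.88 and 0.75 in CD24 medium, -0.68 and -0.59 in CD24 low, and 3.34 and 3.47 in CD24 high. These 3 genes defined the gates and are no finding. Sample signal was well above background on 52.8% of gene spots on the Lgr5 array and on 55.1 and 54.5% on the CD24 medium arrays, within the 42.5 to 60.5% of all 7 arrays, and 0 spots were saturated. The 2 CD24 medium arrays correlated across genes at 0.94, and the Lgr5 array correlated with them at 0.66 and 0.61.

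Of 17477 genes tested, 3279 (18.8%) were called, meaning a limma adjusted p under 0.05 with both CD24 medium arrays on the same side of the Lgr5 array. CD24 medium was higher for 1796 (10.3%) and lower for 1483 (8.49%). The median difference of all genes was 0.09. With the sample channel alone, scaled between arrays, the share of calls that were higher fell from 54.8 to 42.4%. The Lgr5 group is 1 array, so its spread was taken to be that of the Dll1 pairs, and the calls cannot tell a difference of cell type from a peculiarity of that 1 sample. Without CD24 medium 1 the count was 1840, and without CD24 medium 2 it was 1374. The Lgr5 array shared slide 1 with CD24 medium 1 and CD24 high 1. By the call rule, both CD24 medium arrays of every called gene lie on one side of Lgr5, CD24 medium 1 on the shared slide included, so this separation is not evidence of its own. In sorted bulk samples, more cells of a type and more RNA per cell cannot be told apart. For 175 genes called higher, the Lgr5 signal was not well above background. Such folds are given as lower bounds, computed on the sample channel. They are set against the gene's own Lgr5 signal or the faintest measurable signal, whichever was greater. The adjusted p beside such a bound belongs to the log2 ratio of sample over reference.

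**Figure D1:**
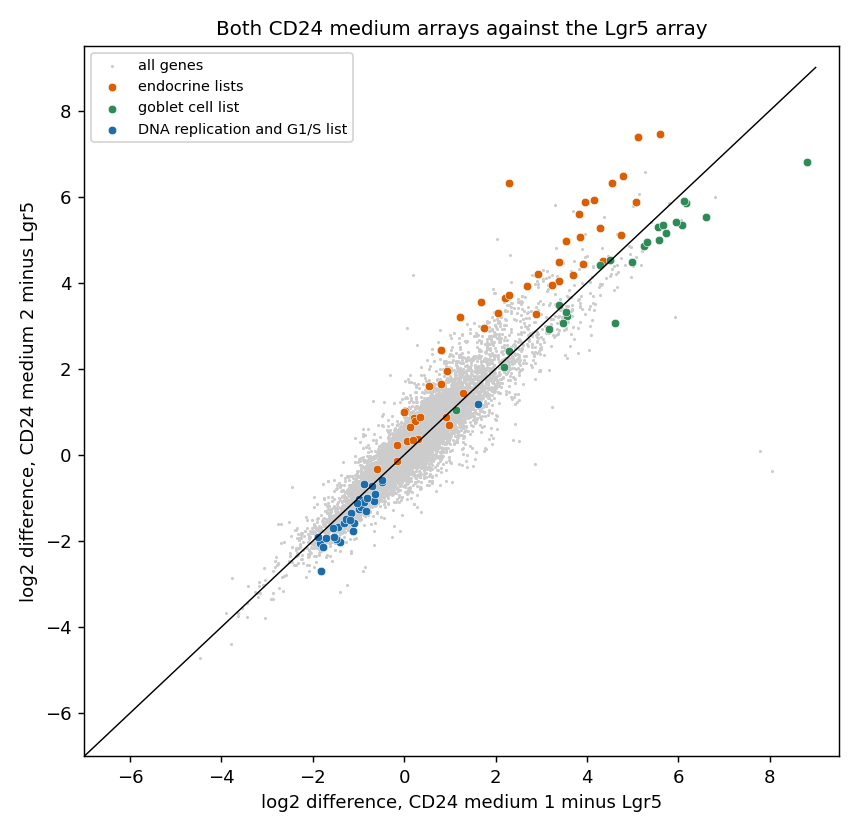
Each point is a gene, with the log2 difference of CD24 medium 1 from the Lgr5 array on the x axis and of CD24 medium 2 on the y axis; the line marks equal differences and colours mark gene lists. Most endocrine genes lie above the line, with CD24 medium 2 further from Lgr5 than CD24 medium 1 (list medians for the transcription factors 3.65 and 2.88), and 29 of 30 DNA replication genes have the lower value on CD24 medium 2.

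Among enteroendocrine transcription factors, 10 of the 17 that passed the filter on dim probes, from a list of 18, were called higher in CD24 medium cells and 0 lower. The median of the 17 was 3.08, and the share called higher was 58.8%, against 10.3% of all genes. Nkx2-2, a factor of several endocrine lineages, stood at 0.72 on the Lgr5 array and at 5.47 and 5.82 on the CD24 medium arrays. Rfx6, needed for endocrine differentiation in gut and pancreas, stood at -0.14 against 4.15 and 5.12. Insm1, a zinc finger factor of endocrine progenitors, stood at -0.22 against 3.63 and 4.85. Rfx6 was at least 13.7-fold higher (adjusted p = 0.0059) and Insm1 at least 15.8-fold (adjusted p = 0.019), since neither was well above background in Lgr5 cells, and another Rfx6 probe differed by 2.72. Pax4, a factor of serotonin and incretin lineages, stood at 0.67 against 4.58 and 5.11, a difference of 4.17 ± 0.80 (SE, adjusted p = 0.016). Nkx2-2 differed by 4.93 ± 1.06 (adjusted p = 0.024).

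Neurog3, the factor that starts the endocrine programme, and Isl1, a factor of mature hormone cells, were chosen after their values were seen, as were the other genes that the naming rule does not cover: members given below as not called, and Mnx1, Pdx1, Hes6, Notch1, Hes5, Defa20, Defa22, Phlda1 and E2f2. Neurog3 stood at 1.15 in Lgr5 cells and at 4.86 and 5.32 in CD24 medium, 3.94 ± 0.92 higher (adjusted p = 0.030). Isl1 stood at -0.32 against 3.07 and 3.71 and was at least 8.92-fold higher (adjusted p = 0.0017). Mnx1 and Pdx1 gave the lowest differences of the list, at -0.46 and -0.15, and neither was called. Of the 10 called factors 5, Neurod1, Isl1, Insm1, Rfx6 and St18, were dim on the Lgr5 array and passed the filter through the Dll1 arrays, so the list's count and median describe those that passed and support nothing. With a filter on every array 5 members remained, 2 of them called. Without CD24 medium 2 the count was 5, and the calls of Nkx2-2 (adjusted p = 0.079), Insm1 (0.068) and Pax4 (0.062) were lost. Nkx2-2 also lost its call without CD24 medium 1 (adjusted p = 0.057) and at a normexp offset of 16 (0.067).

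**Figure D2:**
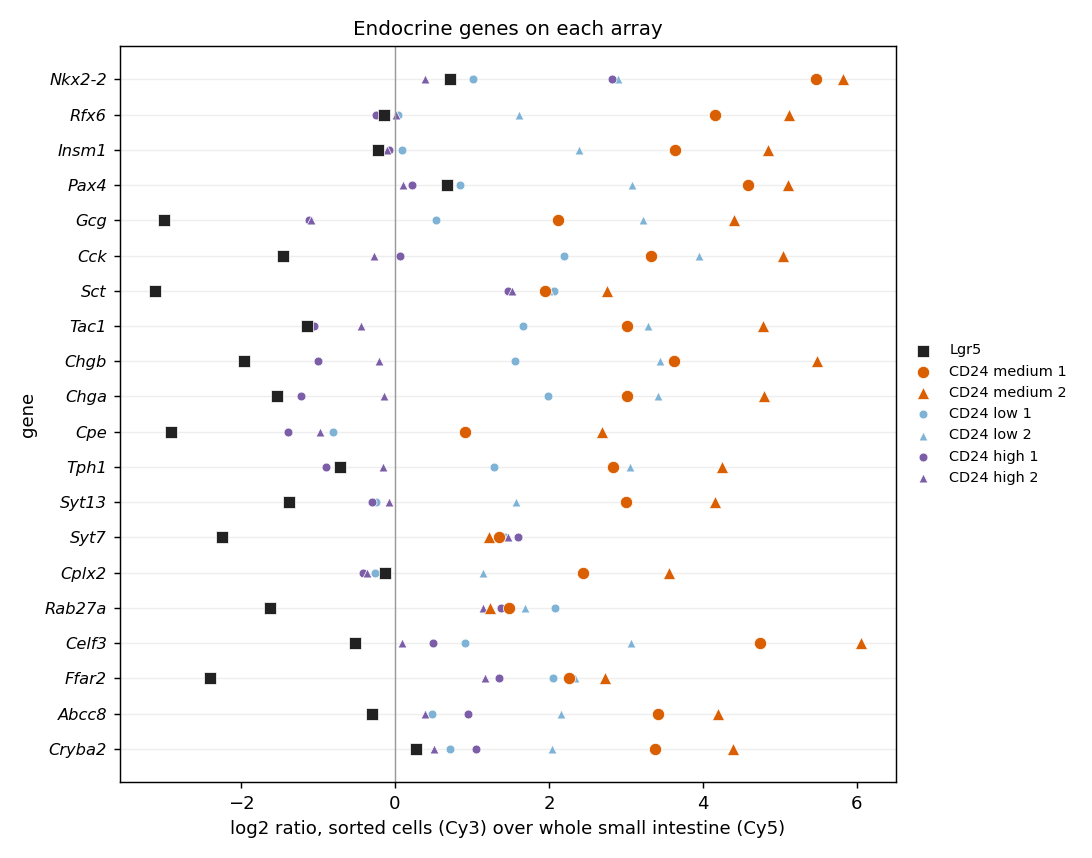
Log2 ratio to whole small intestine on the x axis for 20 endocrine genes, 1 row each, on all 7 arrays; squares are Lgr5, orange points CD24 medium, blue CD24 low and purple CD24 high, with circles for replicate 1 and triangles for replicate 2. In every row both orange points lie to the right of the square, and in most rows CD24 low 2 lies to the right of CD24 low 1.

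Of 15 measured peptide hormone genes 7 were called higher (46.7%, against 10.3% of all genes) and 0 lower. The median was 2.99, or 1.07 when dim probes were kept. Gcg, which encodes glucagon-like peptides, stood at -2.99 on the Lgr5 array and at 2.12 and 4.40 on the CD24 medium arrays. Cck, the gene of cholecystokinin, stood at -1.45 against 3.33 and 5.04, and Sct, the gene of secretin, at -3.12 against 1.95 and 2.76. Tac1, which encodes substance P, stood at -1.14 against 3.01 and 4.78. The Lgr5 array lay below the whole tissue for these 4 genes and both CD24 medium arrays above it. The differences were 6.25 ± 1.21 for Gcg (76.2-fold, adjusted p = 0.017), 5.63 ± 0.85 for Cck (49.6-fold, 0.0082), 5.47 ± 0.33 for Sct (44.4-fold, 0.00062) and 5.03 ± 0.86 for Tac1 (32.7-fold, 0.012). Nts, the gene of neurotensin, was chosen after its values were seen: its CD24 medium arrays stood at -2.52 and 1.51 against -4.81 in Lgr5 cells, and with such a spread a difference of 4.31 ± 1.39 was not called (adjusted p = 0.079). Sst, the gene of somatostatin, stood at -1.40 in Lgr5 cells and at -1.39 and -0.38 in CD24 medium, and was not called (adjusted p = 0.42).

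Granins and the enzymes that make hormones and amines gave 8 higher (53.3%, against 10.3% of all genes) and 0 lower of 15 measured. The median was 2.61, or 4.14 with Agilent's processed signals and 1.74 without CD24 medium 2. Chgb (chromogranin B, probe at chr2:132620703-132620762 on mm9) stood at -1.96 on the Lgr5 array and at 3.62 and 5.48 on the CD24 medium arrays, 6.51 ± 0.95 higher (91.4-fold, adjusted p = 0.0072). Chga (chromogranin A, chr12:103803083-103803142) stood at -1.53 against 3.02 and 4.79, 5.44 ± 0.87 higher (adjusted p = 0.0095). Both granins shape the dense-core granule. Cpe, the carboxypeptidase that trims prohormones, stood at -2.91 against 0.92 and 2.69 (adjusted p = 0.014). Tph1, the rate-limiting enzyme of serotonin synthesis in the gut, stood at -0.72 against 2.83 and 4.25, 4.26 ± 0.82 higher (adjusted p = 0.017), a call lost without CD24 medium 2 (adjusted p = 0.055); its other probe differed by 2.69. Pam, which amidates peptides, differed by 0.03 and was not called, while its other probe differed by 1.40.

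The 2 CD24 medium arrays differed from each other across the endocrine genes. CD24 medium 2 was above CD24 medium 1 for 17 of 17 transcription factors, 14 of 15 hormones and 14 of 15 granin and processing genes, against 54.1% of all genes tested. The list medians over Lgr5 were 2.28 and 3.70 for the hormones and 1.74 and 3.31 for the granin list. The CD24 low arrays ran the same way, with medians of 0.18 and 0.80 for the transcription factors and 0.82 and 2.08 for the granin list on CD24 low 1 and 2. CD24 medium 1 was hybridised on slide 1 and CD24 medium 2 on slide 2, both CD24 low arrays were on slide 2, and the part of slide, animal or gate in this was not tested.

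Promoters of 3 lists, in which 7 of 15, 8 of 15 and 8 of 14 measured members were called higher, are shown because an E-box, the motif class bound by Neurog3, Neurod1 and Atoh1, could be read in them. The 250 bases before the RefSeq start (first window listed for each gene, build GRCm38.p6, which is not the build of the array coordinates) were searched on both strands for 4 motifs chosen with earlier results known. These were 2 E-boxes, the core of the TCF site and the core of the RBPJ site. CAGATG lies in 5 of 14 hormone promoters (35.7%), those of Gcg, Cck, Sct, Tac1 and Ucn3, and in 14.5% of the promoters of 27025 genes. CAGCTG, its own reverse complement, lies in 5 of 13 promoters of the granin list (38.5%), 5 of 12 of the secretory commitment list (41.7%), and 12.8% of all. Of the genes holding these matches, 4 of 5 hormones were called, but only Chga of 5 in the granin list and only Hes6 of 5 in the commitment list, where Jag1 differed by -0.65. CAGATG lies in 0 of 13 promoters of the granin list and 1 of 12 of the commitment list (8.33%), and CAGCTG in 3 of 14 of the hormones (21.4%). The TCF core, CTTTGA, lies in 14% of all promoters and in 14.3% of those of the hormones, 30.8% of the granin list and 8.33% of the commitment list. The RBPJ core, TGGGAA, lies in 21.5% of all promoters and in 42.9% of those of the hormones, 7.69% of the granin list and 25.0% of the commitment list. Lists with a promoter for under 80% of their measured members, such as the enteroendocrine factors (13 of 17) and the goblet list (12 of 24), get no share. The 3 lists shown were picked and are not the only ones to pass this bound. Among others that pass, CAGCTG lies in 26.7% of immediate-early and 4.17% of replication promoters. CAGATG lies in 21.1% of protein folding and 7.14% of tuft promoters. A match is a run of letters, not a bound site. In each list the called member with the largest difference that holds the motif is printed 5′ to 3′, with the motif in capitals.
Gcg, chr2:62483654-62483903, minus strand: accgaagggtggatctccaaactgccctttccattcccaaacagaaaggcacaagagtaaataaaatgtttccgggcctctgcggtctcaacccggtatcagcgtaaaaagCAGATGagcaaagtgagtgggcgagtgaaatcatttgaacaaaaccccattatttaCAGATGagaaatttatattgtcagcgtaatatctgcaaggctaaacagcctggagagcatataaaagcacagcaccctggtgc
Chga, chr12:102554691-102554940, plus strand: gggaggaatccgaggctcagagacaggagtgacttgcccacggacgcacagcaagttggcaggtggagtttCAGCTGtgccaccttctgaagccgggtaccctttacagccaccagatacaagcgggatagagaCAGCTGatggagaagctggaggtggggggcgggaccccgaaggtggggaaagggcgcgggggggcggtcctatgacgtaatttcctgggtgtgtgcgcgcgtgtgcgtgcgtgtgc
Hes6, chr1:91414039-91414288, minus strand: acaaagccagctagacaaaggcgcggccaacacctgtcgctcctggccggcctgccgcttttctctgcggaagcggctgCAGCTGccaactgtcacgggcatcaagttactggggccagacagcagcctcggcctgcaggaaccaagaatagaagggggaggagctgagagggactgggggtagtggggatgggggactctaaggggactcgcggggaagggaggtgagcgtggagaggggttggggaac
The Gcg and Chga promoters each hold 2 matches and the Hes6 promoter 1.

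The machinery of regulated secretion gave 10 higher (52.6%, against 10.3% of all genes) and 0 lower of 19 measured, with a median of 1.90. Syt13, a synaptotagmin of endocrine cells, stood at -1.37 on the Lgr5 array and at 3.0 and 4.16 on the CD24 medium arrays, 4.95 ± 0.75 higher (30.9-fold, adjusted p = 0.0084), while its other probe differed by 1.68. Syt7, a calcium sensor of granule release, stood at -2.24 against 1.35 and 1.23 (11.6-fold, adjusted p = 0.00056), and its CD24 low and CD24 high arrays reached 1.30 to 1.59. The 3 other Syt7 probes differed by 0.43, 0.58 and 0.89, so the size of this fold rests on 1 probe. Rab27a, a GTPase that docks granules, likewise stood at -1.62 in Lgr5 cells and between 1.15 and 2.08 on all 6 Dll1 arrays (adjusted p = 0.0014), and its other probe differed by 1.05. Cplx2, a regulator of vesicle fusion, followed the other pattern: -0.13 in Lgr5 cells, 2.44 and 3.57 in CD24 medium, -0.26 and 1.14 in CD24 low, and -0.41 and -0.36 in CD24 high (adjusted p = 0.019, and 0.063 without CD24 medium 2). Its difference was 3.13, against 1.11 to 2.25 for its other probes. With the sample channel alone 5 members of the list were called and the median was 1.1, and with Agilent's processed signals it was 2.99.

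Among genes of excitability and nutrient sensing, 6 of 17 measured were called higher (35.3%, against 10.3% of all genes) and 0 lower. The median was 0.98, or 2.64 with Agilent's processed signals. Celf3, an RNA-binding protein of neural and endocrine cells, stood at -0.51 on the Lgr5 array and at 4.74 and 6.05 on the CD24 medium arrays, 5.91 ± 0.88 higher (60.1-fold, adjusted p = 0.0076). Ffar2, a receptor for short-chain fatty acids, stood at -2.40 against 2.26 and 2.73 (adjusted p = 0.00056). Abcc8, the sulphonylurea receptor of the ATP-sensitive potassium channel, stood at -0.30 against 3.42 and 4.20 (adjusted p = 0.010). Cryba2, a crystallin found in endocrine cells, stood at 0.27 against 3.37 and 4.39 (adjusted p = 0.012). Of these 4 genes Ffar2 alone stood above 2 on both CD24 low arrays, at 2.05 and 2.34.

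Of 14 measured commitment genes and Notch ligands 8 were called higher (57.1%, against 10.3% of all genes) and 0 lower (median 1.63). The count includes the sorting gene Dll1. Spdef, a factor of goblet and Paneth maturation, stood at -1.34 on the Lgr5 array and at 3.74 and 3.25 on the CD24 medium arrays, 4.83 ± 0.26 higher (28.5-fold, adjusted p = 0.00056). Gfi1, a repressor downstream of Atoh1, stood at -1.89 against 2.24 and 1.64 (adjusted p = 0.0035). Atoh1 itself stood at -1.08 against 1.21 and 0.37, 1.87 ± 0.40 higher (adjusted p = 0.024). That call was lost without CD24 medium 1 (adjusted p = 0.061) and with the sample channel alone (0.41). Dll4, a ligand that acts beside Dll1, stood at 0.14 against 3.14 and 3.41 (adjusted p = 0.0044), and Mfng, a glycosyltransferase that tunes Notch, at -0.56 against 1.56 and 2.70 (adjusted p = 0.017). Hes6, whose promoter is printed above, stood at 0.25 against 1.45 and 1.47 (adjusted p = 0.034), and the ligand gene Jag1 at -0.19 against -0.64 and -1.04, which was not called.

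Of 11 measured Notch receptors and effectors 0 were called higher and 6 lower (54.5%, against 8.49% of all genes), with a median of -1.01. With a filter on every array 3 were called lower (median -0.33). Olfm4, a Notch target and stem cell gene, stood at 3.04 on the Lgr5 array and at -1.43 and -1.69 on the CD24 medium arrays, 24.2-fold lower (difference -4.60 ± 0.32, adjusted p = 0.00084). Olfm4 is counted on the crypt base stem cell list below too, whose direction is no independent result. The receptor gene Notch2 stood at 0.84 against -1.83 and -1.99 (adjusted p = 0.0030). Another probe of it, which takes its place when every array must be well above background, gave 0.07 and no call, so the Notch2 result rests on 1 probe. Dtx4, an E3 ligase of the pathway, stood at 1.98 against -0.36 and -0.21 (adjusted p = 0.0033), and Nrarp, a feedback inhibitor that Notch induces, at 0.97 against -0.71 and -0.88 (adjusted p = 0.0060). Notch1 and Hes5 were the other members called lower. Hes1, the repressor that Notch uses to hold Atoh1 off, stood at 0.06 against -0.60 and -0.73 and was not called (adjusted p = 0.067).

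Goblet cell genes had the highest share of calls among the 24 lists. Of 26 on the list 24 passed the filter, 24 were called higher (100%, against 10.3% of all genes) and the median was 4.89. Clca1, a protein of the mucus layer, stood at -6.19 on the Lgr5 array and at 2.63 and 0.61 on the CD24 medium arrays, a difference of 7.81 ± 1.51 (224-fold, adjusted p = 0.017) that missed the threshold without CD24 medium 1 (adjusted p = 0.051). Fcgbp, a mucus scaffold protein, stood at -3.33 against 2.79 and 2.57, 6.01 ± 0.33 higher (64.4-fold, adjusted p = 0.00056). Agr2, a disulphide isomerase that folds mucin, stood at -2.66 against 3.50 and 3.19 (64.3-fold, adjusted p = 0.00052). Rep15, a Rab15-binding protein, stood at -3.27 against 3.32 and 2.25 (66.6-fold, adjusted p = 0.0014). All 6 Dll1 arrays exceeded Lgr5 for these 4 genes. Over Lgr5 the list medians were 5.11 and 4.68 on the CD24 medium arrays, 5.02 and 4.86 on CD24 low, and 4.32 and 4.15 on CD24 high. Unlike the endocrine genes, the goblet genes were mostly higher on CD24 medium 1: CD24 medium 2 was the higher array for 4 of 24.

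Scin and Kcnk6, which no list held, were among the 10 largest differences. Scin, an actin-severing protein of secretory cells, stood at -4.60 on the Lgr5 array and at 2.20 and 1.39 on the CD24 medium arrays (83.8-fold, adjusted p = 0.0017). Kcnk6, a potassium channel, stood at -4.34 against 1.71 and 1.12 (54.1-fold, adjusted p = 0.00056). The CD24 low arrays stood at 2.26 and 1.75 for Scin and at 2.24 and 1.87 for Kcnk6, while Scin stood at -2.40 and -3.63 in CD24 high.

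Paneth cell genes lay between the CD24 low and CD24 high fractions. Of 17 measured 13 were called higher than Lgr5 (76.5%, against 10.3% of all genes) and 0 lower (median 2.70). Lower than CD24 high were 16 of the 17, against 13.3% of all genes. The medians over Lgr5 were 2.79 and 2.83 on the CD24 medium arrays, 0.39 and 0.31 on CD24 low, and 7.94 and 8.17 on CD24 high. Itln1, a lectin of Paneth and goblet granules, stood at -3.01 in Lgr5 cells, 0.63 and 0.65 in CD24 medium, -2.65 and -2.59 in CD24 low, and 6.63 and 6.71 in CD24 high (12.6-fold over Lgr5, adjusted p = 0.00052). Mmp7, the protease that activates mouse defensins, stood at -2.68 in Lgr5 cells against 0.89 and 1.00 (adjusted p = 0.00055). Defa24, an alpha-defensin whose near-identical relatives may share its probe, stood at -2.99 against 0.68 and 0.49 (adjusted p = 0.00062). Nupr1, a small chromatin protein induced by stress, stood at -3.46 against 0.25 and 0.49 (adjusted p = 0.0018). No 2 of the 4 groups overlapped for Itln1, and CD24 low lay closest to Lgr5. Whether the CD24 medium gate held some Paneth cells or cells with fewer Paneth transcripts was not tested. Of the list's other alpha-defensins Defa20 and Defa22 were called, with differences of 3.18 and 2.70, Defa21 was not, at 1.11, and 5 were not analysed here.

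Tuft cell genes gave 2 higher of 17 measured (median 0.54), a share near the 10.3% of all genes. Gng13, a G protein subunit of taste transduction, stood at -0.40 on the Lgr5 array and at 2.57 and 1.57 on the CD24 medium arrays (adjusted p = 0.0097). Avil, an actin-binding protein, stood at -1.87 against 0.20 and -0.25 (adjusted p = 0.0065). Dclk1, the usual tuft marker, stood at -0.89 against -0.62 and -1.14.

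**Figure D3:**
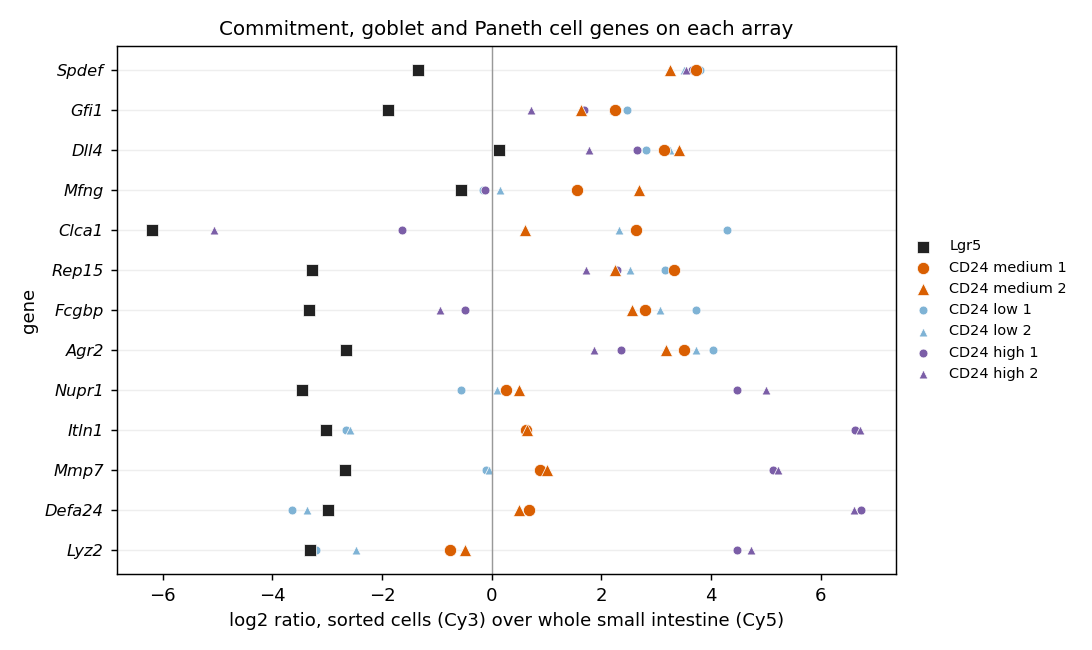
Log2 ratio to whole small intestine on the x axis for 13 genes of secretory commitment, goblet cells and Paneth cells, 1 row each, on all 7 arrays; squares are Lgr5, orange points CD24 medium, blue CD24 low and purple CD24 high. The 6 Dll1 arrays lie close together for Spdef, between 3.25 and 3.79, while Itln1, Mmp7, Defa24 and Lyz2 separate into CD24 low, medium and high.

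Set against the other Dll1 fractions, with the CD24 medium arrays shared between these comparisons, few genes were called between CD24 medium and CD24 low. Replicates were not paired in this fit, and a gene not called is not shown to be alike in both fractions. Of 17536 genes tested 20 (0.114%) were called by limma, all higher in CD24 medium, while 946 were higher and 919 lower at an unadjusted p under 0.05. Gip, the gene of the incretin hormone made by K cells (chr11:95886745-95887966 on mm9), had the largest such difference: 2.49 and 2.64 in CD24 medium, -2.58 and -1.93 in CD24 low, 2.06 and 1.53 in CD24 high, and -1.87 in Lgr5 cells. Gip was thus 4.82 ± 0.28 above CD24 low (adjusted p = 0.0034), and 4.43 ± 0.34 above Lgr5 (adjusted p = 0.0011). Isl1, a factor of K cells among others, stood at -0.12 and 0.18 in CD24 low and at 0.38 and near 0 in CD24 high. Of the 20, 8 bear the symbols of alpha-defensins, near-identical genes whose probes may read each other, and Lyz1, Itln1 and Cd24a were among the rest, as was Lypd1, which together with Isl1 and Ooep was also higher than CD24 high. The genes named here beside Itln1 and Cd24a were chosen after their values were seen. The count was 41 without CD24 low 2, 39 without CD24 medium 1, 10 without CD24 low 1 and 9 without CD24 medium 2, CD24 high 1 or CD24 high 2.

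Against CD24 high, CD24 medium was higher for 1312 genes (7.48%) and lower for 2325 (13.3%). The total of 3637 was 1482 without CD24 medium 1, 1256 without CD24 medium 2 and 1840 without CD24 high 2. Higher than CD24 high were 13 of 17 enteroendocrine factors, 8 of 15 granin and processing genes, 5 of 19 secretion genes and 8 of 17 genes of excitability. Chgb, for example, stood at -1.0 and -0.21 in CD24 high and Rfx6 at -0.24 and 0.01. Of the hormones 4 were higher and 3 lower than CD24 high; Sst stood at 0.86 and 0.57 in CD24 high and below 0 on both CD24 medium arrays (adjusted p = 0.020). Replication and mitosis genes also stood higher than in CD24 high, 16 of 30 in each list. Against CD24 low, 0 members of the granin, secretion, replication and mitosis lists were called, 1 factor (Isl1), 1 hormone (Gip) and 5 Paneth genes. The list medians of CD24 medium minus CD24 low were 2.37 for the factors, 0.63 for the hormones and 1.21 for the granin list. They were 0.51 for secretion, -0.24 for replication, -0.66 for mitosis and 1.61 for the Paneth list.

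Of 29 measured crypt base stem cell genes 18 were called lower in CD24 medium (62.1%, against 8.49% of all genes). The list had 1 gene called higher (3.45%, against 10.3%) and a median of -1.76. Scn2b, a sodium channel subunit of the stem cell signature, stood at 3.27 on the Lgr5 array and at -0.52 and -1.11 on the CD24 medium arrays, 17.0-fold lower (difference -4.08 ± 0.28, adjusted p = 0.00083, and 0.076 with Agilent's processed signals). Tnfrsf19, a receptor also known as Troy, stood at 0.45 against -3.18 and -3.29, 12.8-fold lower (adjusted p = 0.00079). Slc14a1, a urea transporter, stood at 2.24 against -1.39 and -1.42 (adjusted p = 0.00062). In these genes no CD24 low or CD24 high array reached Lgr5 either. Fstl1, a secreted follistatin-like protein, stood at 0.89 against -2.88 and -1.96 (adjusted p = 0.0049). Smoc2 and Prom1, which are stem cell markers too, differed by -0.88 and -0.40 and were not called. Phlda1 was the member called higher, at -1.11 against 0.40 and 0.56 (adjusted p = 0.029). The count includes the sorting gene Lgr5, and many members are known as markers of Lgr5 cells, so the list's direction is no independent result.

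Wnt targets and feedback genes gave 8 lower (38.1%, against 8.49% of all genes) and 0 higher of 21 measured, Lgr5 among those lower. The median was -0.63, or -1.04 with Agilent's processed signals. Sp5, a factor that Wnt induces directly, stood at -0.32 on the Lgr5 array and at -3.49 and -3.26 on the CD24 medium arrays, 8.35-fold lower (adjusted p = 0.00087). Axin2, the feedback scaffold, stood at 0.38 against -1.72 and -1.64, 4.18-fold lower (adjusted p = 0.0055). Myc stood at 0.46 against -1.31 and -1.45, 3.58-fold lower (adjusted p = 0.0034), and its other probes differed by -1.69 and -0.46. The CD24 low and CD24 high arrays lay between the 2 groups or beside CD24 medium for these genes. The members not called included Ephb2, Ephb3, Nkd1 and Notum. Among reserve stem cell genes 1 of 6 was called higher (16.7%, against 10.3% of all genes): Mex3a, an RNA-binding protein, stood at -0.57 against 0.23 and 0.52 (adjusted p = 0.038). Mex3a fell short without CD24 medium 1, CD24 medium 2, CD24 high 1 (adjusted p = 0.053) or CD24 high 2, with the slide as a term (0.075) and with Agilent's processed signals (0.54). Hopx and Bmi1 differed by 0.27 and -0.47, and another Bmi1 probe by 0.07.

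**Figure D4:**
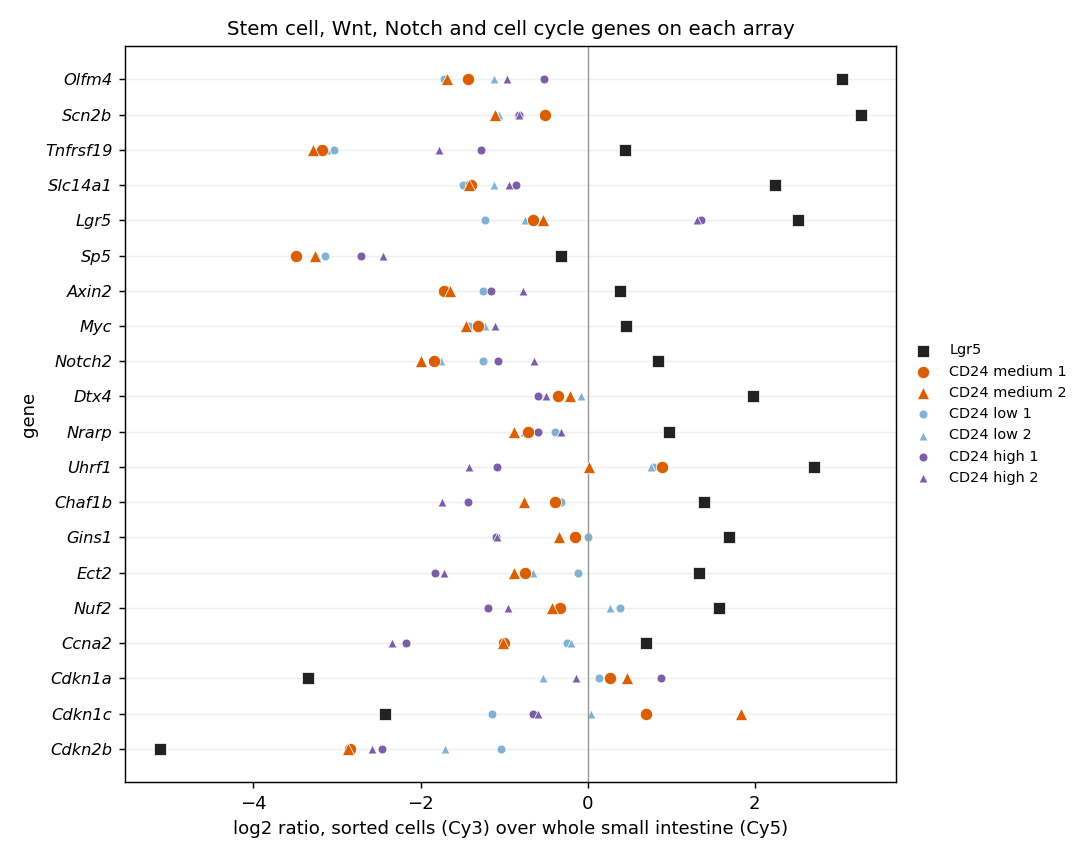
Log2 ratio to whole small intestine on the x axis for 20 stem cell, Wnt, Notch and cell cycle genes, 1 row each, on all 7 arrays; squares are Lgr5, orange points CD24 medium, blue CD24 low and purple CD24 high. The square lies to the right of all other points in the first 17 rows and to their left for Cdkn1a, Cdkn1c and Cdkn2b.

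Of 30 measured genes of DNA replication and the G1/S transition 23 were called lower and 1 higher (median -1.30). Of 30 of G2 and mitosis 21 were lower and 0 higher (median -1.16). The shares called lower were 76.7 and 70.0%, against 8.49% of all genes. Uhrf1, which carries DNA methylation through replication, stood at 2.71 on the Lgr5 array and at 0.89 and 0.02 on the CD24 medium arrays, 4.78-fold lower (adjusted p = 0.0096). Chaf1b, a histone chaperone of the fork, stood at 1.39 against -0.39 and -0.76 (adjusted p = 0.0044). Gins1 and Gins2, subunits of the replicative helicase, stood at 1.70 and 1.71 in Lgr5 cells, against -0.15 and -0.34 for Gins1 and -0.17 and -0.19 for Gins2 (adjusted p = 0.0024 and 0.0023). Among mitotic genes, Ect2, an exchange factor of cytokinesis, stood at 1.33 against -0.75 and -0.89 (adjusted p = 0.0042), with another probe at a difference of -0.51, and Nuf2, a kinetochore protein, at 1.57 against -0.34 and -0.42 (adjusted p = 0.0028). Nusap1, a spindle protein, stood at 1.07 against -0.74 and -0.90 (adjusted p = 0.0032). Ccna2, cyclin A2, stood at 0.70 against -1.0 and -1.01, 3.27-fold lower (adjusted p = 0.0032). Mki67, the usual proliferation marker, stood at 0.39 against -0.03 and -0.41 and was not called. Without CD24 medium 2 the counts of lower genes were 8 and 13, without CD24 medium 1 both were 15, and with Agilent's processed signals 12 and 8, when Uhrf1, Ect2, Nusap1 and Ccna2 missed the threshold (adjusted p = 0.083, 0.12, 0.14 and 0.057). With a filter on every array 10 mitotic genes were called lower. The member called higher was E2f2, at -0.30 against 1.30 and 0.88.

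Of 9 measured D cyclins and inhibitors of cyclin-dependent kinases, 3 inhibitors were called higher (33.3%, against 10.3% of all genes) and 1 lower (11.1%, against 8.49%). Cdkn1a, the gene of p21, stood at -3.35 on the Lgr5 array and at 0.26 and 0.47 on the CD24 medium arrays, 13.2-fold higher (adjusted p = 0.0044). Cdkn1c, the gene of p57, stood at -2.43 against 0.70 and 1.84, 13.0-fold higher (adjusted p = 0.0091), with CD24 low and CD24 high between -1.14 and 0.04. Cdkn2b, the gene of p15, stood at -5.12 against -2.84 and -2.87 (adjusted p = 0.0050). The inhibitor called lower was Cdkn2c, at 0.78 against -0.43 and -0.41 (adjusted p = 0.019), a call lost without either CD24 medium array. Cdkn1b, the gene of p27, differed by -0.38 and was not called, and its other probe differed by 0.25. The list median of 0.43 turned to -0.12 with the sample channel alone. Genes of ribosome biogenesis gave 5 lower and 0 higher of 22 measured (median -0.57), or 1 lower without either CD24 medium array. The share called lower was 22.7% of this list and 8.49% of all genes. Wdr12, a factor of large subunit assembly, stood at 1.41 against -0.21 and -0.26 (adjusted p = 0.0072), a difference of -1.64, with -1.20 and -0.43 from its other probes. Rrs1, Polr1a and Dkc1 differed by -1.13, -1.06 and -0.95 (adjusted p = 0.016, 0.030 and 0.019), and each lost its call without either CD24 medium array. Another Dkc1 probe differed by -0.13.

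Among the largest differences toward Lgr5 outside the lists, Slc1a3, a glutamate transporter, stood at 3.21 on the Lgr5 array and at -0.68 and -0.46 on the CD24 medium arrays, 13.7-fold lower (adjusted p = 0.00087). Dct, a melanin pathway enzyme, stood at 2.89 against -0.65 and -0.67 (adjusted p = 0.00063), and Jaml, a junctional adhesion molecule, at 2.19 against -0.86 and -1.60 (adjusted p = 0.0031). Cps1, the first enzyme of the urea cycle, stood at 3.04 against -0.40 and -0.72 (adjusted p = 0.0055, and 0.075 with the sample channel alone). Aadac, an arylacetamide deacetylase, stood at 1.71 against -1.50 and -1.58 (adjusted p = 0.0024). No other Dll1 array overlapped Lgr5 in these 5 genes.

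Enterocyte genes gave 5 higher of 31 measured (16.1%, against 10.3% of all genes) and 0 lower (against 8.49%), with a median of 0.60. The count of higher genes was 3 without CD24 medium 2 (median 0.36), 8 without either CD24 low array and 10 in a fit of the 3 arrays alone. Krt20, a keratin of differentiated epithelium, stood at -7.47 on the Lgr5 array and at -3.02 and -2.84 on the CD24 medium arrays, 23.4-fold higher (adjusted p = 0.0017). Sis, sucrase-isomaltase, stood at -6.73 against -4.81 and -3.80 (adjusted p = 0.012, and 0.062 with the sample channel alone). Slc2a5, the fructose transporter, stood at -3.22 against -1.03 and -0.66 (adjusted p = 0.0021). Muc13, a membrane mucin, stood at -0.84 against 0.21 and 0.37 (adjusted p = 0.012), a call lost without CD24 medium 2. Krt20, Sis and Slc2a5 stayed below the whole tissue in both groups. Fabp1, Alpi and Apoa4, which mark mature enterocytes, differed by -1.05, 0.30 and 0.11 and were not called.

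Genes of protein folding in the endoplasmic reticulum gave 12 higher (52.2%, against 10.3% of all genes) and 0 lower of 23 measured. With the slide as a term 20 were higher. The median was 1.64, or 1.33 without CD24 medium 1. Herpud1, a degradation factor, stood at -0.76 on the Lgr5 array and at 1.83 and 1.24 on the CD24 medium arrays (4.90-fold, adjusted p = 0.012). Atf6 and Xbp1, sensors and effectors of the unfolded protein response, stood at -0.64 and -1.85 in Lgr5 cells. Atf6 reached 0.94 and 1.86 (adjusted p = 0.015) and Xbp1 0.04 and 0.31 (adjusted p = 0.0070). Pdia6, a disulphide isomerase, stood at -0.76 against 1.54 and 0.97 (adjusted p = 0.0075, and 0.057 as the mean of its probes, which differed by 0.31 to 2.02). Hspa5 and Ddit3 had the largest differences but spread too far to be called, with CD24 medium values of 2.08 and 0.98 for Hspa5.

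Immediate-early genes, which respond within minutes to stress such as cell dissociation, were higher in 14 of 18 cases and lower in 0. The share called higher was 77.8%, against 10.3% of all genes, and the median was 3.22. Nr4a1 stood at -2.14 on the Lgr5 array and at 3.65 and 3.71 on the CD24 medium arrays (56.6-fold, adjusted p = 0.00083), and Atf3 at -1.38 against 4.02 and 4.03 (42.3-fold, adjusted p = 0.00092). Egr1 stood at -0.75 against 4.43 and 3.66 (adjusted p = 0.0075). Fos stood at -2.12 against 2.88 and 2.26 (adjusted p = 0.017, and 0.056 without CD24 medium 1). On all 6 Dll1 arrays these 4 genes exceeded Lgr5, and the list medians over Lgr5 were 5.06 and 3.63 on CD24 high and 2.49 and 2.84 on CD24 low. The heat shock genes Hspa1a and Hspa1b differed by -0.32 and -0.47 and were not called, while their other probes differed by -0.29 and -1.65. The Lgr5 cells came from another mouse line and sort, so a difference in handling and a difference in cell type cannot be told apart here, and its part in the results above was not tested.

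Of 22 measured immune genes 2 were called higher (9.09%, near the 10.3% of all genes, median 0.25). Both CD24 medium arrays lay above Lgr5 for 19 of the 22, 10 of 11 mesenchymal genes and 8600 of the 17477 genes tested. The 2 called were Lyz2, a lysozyme that is also on the Paneth list, at -3.31 against -0.75 and -0.48 (adjusted p = 0.0043), and Jchain, of plasma cells, at -4.76 against -3.21 and -3.0 (adjusted p = 0.028). Another Lyz2 probe differed by 0.61. Jchain lost its call without either CD24 medium array and with the slide as a term (0.057). Cd3e differed by 0.20 and was not called, and Ptprc was dim. Of 11 mesenchymal genes Vim, at -5.34 against -1.65 and 0.33 (adjusted p = 0.021), and Acta2, at -1.84 against -0.75 and -0.48 (adjusted p = 0.023), were called, 18.2% against 10.3% of all genes. Vim lost its call without CD24 medium 2 (adjusted p = 0.058) and Acta2 without either CD24 medium array, and another Acta2 probe gave -0.08, while Col1a1 stayed at -4.84 against -4.50 and -4.25.

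Of 7 measured neural and glial genes, from a list of 12, 4 were called higher (57.1%, against 10.3% of all genes). With the sample channel alone 1 was called. The median was 1.20, or 0.90 without CD24 medium 2. Only 3 of the 7 were well above background on the Lgr5 array, and the rest passed the filter through the Dll1 arrays. The count and median therefore describe those that passed and support nothing. With dim probes kept, the median of all 12 was 0.21. Nefl, a neurofilament, stood at -0.34 on the Lgr5 array and at 1.30 and 2.32 on the CD24 medium arrays, at least 3.23-fold higher (adjusted p = 0.015; another probe differed by 1.1), and Elavl4, a neuronal RNA-binding protein, was at least 2.97-fold higher (adjusted p = 0.032, and 0.11 without CD24 medium 2). Tubb3, a neuronal tubulin that is also on the commitment list, stood at -0.10 against 1.35 and 2.05 (adjusted p = 0.019, and 0.066 without CD24 medium 2). Uchl1, at -2.71 against -2.09 and -1.89 (adjusted p = 0.047), lost its call when any array was left out. Enteroendocrine cells express several of these genes, while Ret and Gfap were dim and Sox10 was not called. Of 4 erythroid genes 3 were lower (75.0%, against 8.49% of all genes). Hbb-bt stood at -2.19 against -5.01 and -4.81 (6.57-fold, adjusted p = 0.0021), and its other probes differed by -1.16 to -1.38. The near-identical Hba-a1 and Hba-a2 differed by a factor of 2.01 and 2.15 in the same direction (adjusted p = 0.035 and 0.022). Both calls were lost without either CD24 medium array. The part of any of these cells in the epithelial results was not tested.

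**Figure D5:**
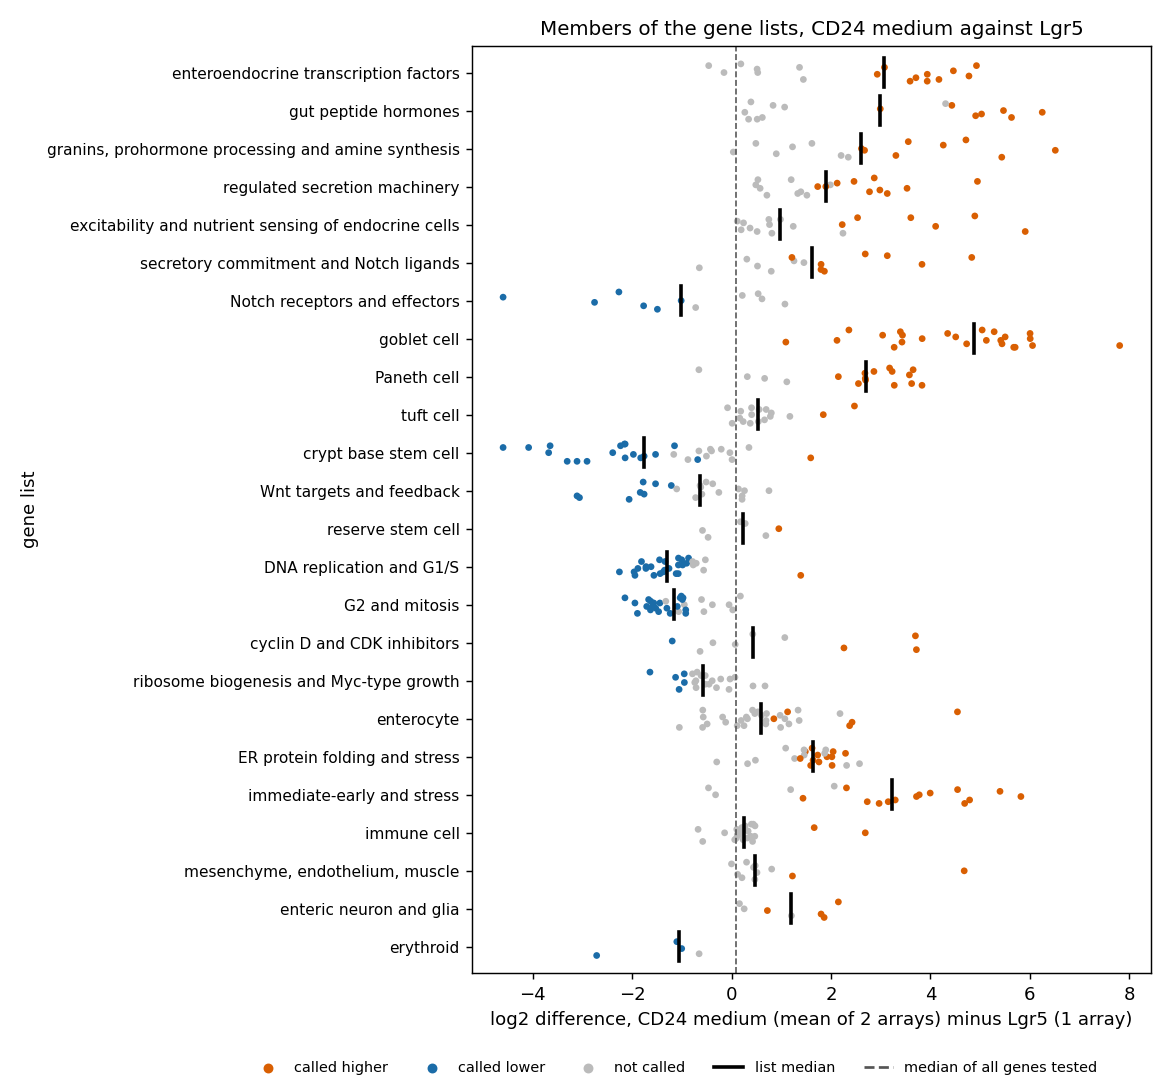
Log2 difference of CD24 medium (mean of 2 arrays) from the single Lgr5 array on the x axis, with 1 point per measured gene in each of 24 lists; orange is called higher, blue called lower and grey not called, black bars are list medians and the dashed line is the median of all genes. The 24 measured goblet genes lie to the right at a median of 4.89, the stem cell genes lie to the left at -1.76, and the immune and mesenchymal lists have medians of 0.25 and 0.47, against 0.09 for the dashed line.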

How the data were processed

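Mean and background intensity of each spot in both channels come from Agilent Feature Extraction 10.5.1.1, per the file headers, which place probes on mm9. A log10 ratio (Cy5 to Cy3) was deposited beside them, and the series matrix is that ratio with its sign turned (largest difference 5e-06). From the mean intensities of gene spots, limma 3.58.1 (R 4.3.3) computed normexp background correction (offset 50) and loess log2 ratios (span 0.3), turned to sample over reference; the authors' log10 ratios served as an alternative. Controls got no weight, and spots marked as outliers in the sample channel were dropped. Probes well above background in the sample channel on at least 2 of 7 arrays were kept, and the brightest of 24491 probes stood for each of 17536 genes. RefSeq accessions gave the names of 27027 of 41174 probes, the array file those of the rest.

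The model held a mean for each of 4 groups over all 7 arrays (3 residual and 3.55 prior degrees of freedom), with Benjamini-Hochberg adjustment over all genes; the steps were tested on simulated data. Figures used matplotlib 3.10.9 with Python 3.11.15. The number of arrays limits the precision. The fit did not pair the samples by replicate number. Deviations of the replicates correlated at 0.30 between CD24 high and medium, -0.01 between high and low, and 0.48 between medium and low. Named genes were the 10 largest called differences each way whose probe was well above background on every array of the brighter group, up to 4 called members per list, and Cd24a, Dll1, Lgr5 and Atoh1; others are said to be chosen after their values were seen. The comparison, the 24 lists and the rules were chosen with earlier results of these data known.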

Additional observations from a re-analysis of the deposited data

How the results depend on the processing

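The Lgr5 group rests on 1 array that cannot be left out, and its spread is borrowed from the Dll1 pairs. Without one array in turn, the genes called against Lgr5 numbered 1374 to 3626, those higher 894 to 2098 and those lower 480 to 1528; calls against CD24 low numbered 9 to 41 and against CD24 high 1256 to 3961. A minimum difference of 1 left 970 lower than Lgr5 and 2012 called against CD24 high. Against CD24 low, 33 were called with no background subtraction and 12 with an offset of 16. With the replicate number as a term (replicate block) 3879 genes were called against Lgr5 and 29 against CD24 low. With that term the 96 named genes kept their calls against Lgr5, while other settings ended some of these calls. Of the calls, 98.4% recurred without background subtraction, 67.4% with Agilent's processed signals, 71.5% with the sample channel alone and 70.6% with the slide as a term. Among genes called both in the main fit and in another setting, 0 changed direction. Genes that lost their call are not in this count. Processed signals moved the median of all genes from 0.09 to -0.02 and ended 11 of the 96 named calls, and the sample channel alone ended 12; the cause was not tested. Among list medians and named genes, reversed values were the median of the cyclin D and kinase inhibitor list, -0.12 with the sample channel alone, and Notch2. Notch2 gave 0.0697 through another probe when every array had to be well above background. Quantile scaling of average intensity leaves the log ratios as they are by construction. Of 39 further probes of named genes 2 had the opposite sign and 34 gave smaller differences.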

Other observations

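The genes given here as single values were chosen after their values were seen and stand for no pathway. Cftr, the apical chloride channel, stood at 1.18 on the Lgr5 array and at -1.73 and -2.17 on the CD24 medium arrays, a difference of -3.13 ± 0.27. Kcnq1 and Kcne3, the subunits of a basolateral potassium channel that serves chloride secretion, differed by -2.64 and -2.39. Otc, the urea cycle enzyme after Cps1, stood at 0.90 against -1.98 and -2.31, while Asl and Arg2, later steps of that cycle, differed by -0.29 and 0.03 and were not called, and Ass1 was higher by 1.00. Oat and Fbp1, enzymes of ornithine and glucose metabolism, differed by -2.16 and -2.59. Myb, a factor of proliferating progenitors, differed by -2.49, and Nlrp6, an innate immune sensor, by -3.11. All but Asl and Arg2 were called by limma.

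Other genes chosen in the same way stood higher in CD24 medium. Cbfa2t3 and Runx1t1 encode related co-repressors. Cbfa2t3 stood at -1.21 on the Lgr5 array and between 3.45 and 4.12 on all 6 Dll1 arrays. Runx1t1, dim in Lgr5 cells, stood at 2.71 and 3.59 in CD24 medium, 0.04 and 0.92 in CD24 low, and 1.63 and 0.60 in CD24 high. Reg4, a lectin of deep secretory cells, stood at -1.97 in Lgr5 cells, 1.38 and 2.18 in CD24 medium, -0.30 and 0.09 in CD24 low, and 5.38 and 5.66 in CD24 high. Klk1, a kallikrein with close paralogs, stood at -1.73 in Lgr5 cells and between 2.25 and 2.97 on the Dll1 arrays.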
